A study of Mus musculus with 6 samples.

Results

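The glycolytic isozymes described here are 10 genes whose products carry out 5 steps of glycolysis, chosen by name from the 29072 genes with an identifier in the deposited table. They are the hexokinases Hk1 and Hk2, the phosphofructokinases Pfkm, Pfkl and Pfkp, the aldolase Aldoa, the phosphoglycerate mutases Pgam2 and Pgam1, and the enolases Eno3 and Eno1. Pfkm, Eno3 and Pgam2 are the forms of skeletal muscle, and they were compared with the other 7. RNA was sequenced from interscapular brown adipose tissue of UCP1(-/-) knockout and wildtype mice, both of strain C57BL/6J, with 3 libraries per genotype. The question was how the transcripts of this tissue differ between the genotypes. The sources used here do not give age, sex, diet, housing temperature, the deleted part of Ucp1 or whether each library came from a separate animal. P-values thus rest on the variation among these 6 libraries, which may be technical.

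Glycolysis breaks glucose down to pyruvate in the cytosol. Several of its steps are carried out by related enzymes, isozymes, that are encoded by separate genes and used in different proportions by different tissues. Skeletal muscle relies on its own forms of phosphofructokinase, phosphoglycerate mutase and enolase, while most other tissues use forms found more broadly. Brown fat takes up much glucose when it is active, and its uncoupling protein UCP1 releases the energy of fuel oxidation as heat.

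All 3 muscle isozymes were higher in the knockout libraries, Pgam2 by 8.31-fold, Eno3 by 6.61-fold and Pfkm by 1.65-fold. Of the other 7 isozymes, Hk1 alone was called, at 2.69-fold higher, and 6 did not pass the test. In all, 4 of the 10 isozymes rose and 0 fell by limma at an adjusted p under 0.05, where 6.95% of the 11562 genes tested rose and 0.718% fell. At an unadjusted p under 0.05, 6 isozymes differed and 1 of these, Eno1, was lower, where 23.5% of all tested genes differed and 3.67% were lower. The groups did not overlap for 6 isozymes, of which 5 were higher in every knockout library and 1 was lower. Among all tested genes, 24.2% were higher in every knockout library and 5.11% were lower in every one. The median change was 2.64 on the log2 scale for the 3 muscle isozymes, 0.00 for the other 7 and 0.08 for all tested genes.

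**Figure D1:**
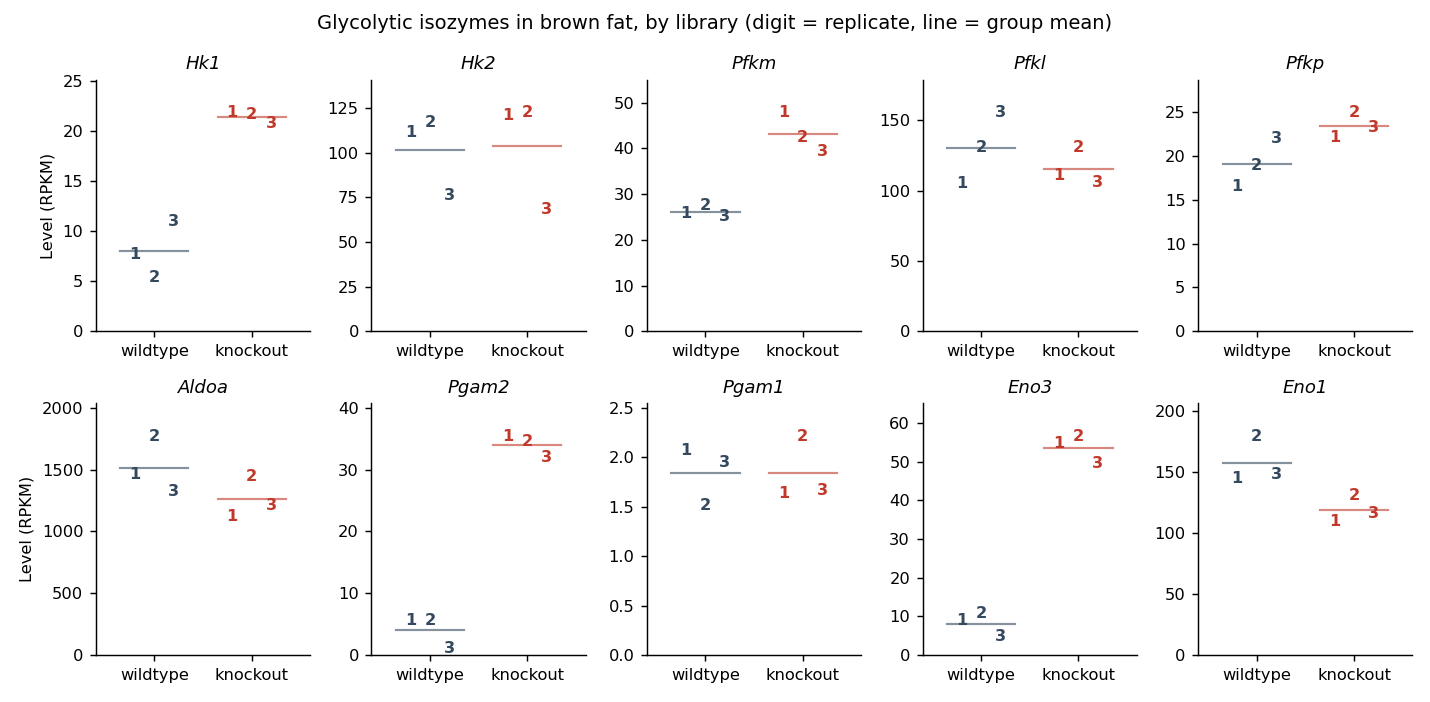
Level of each of the 10 isozymes in RPKM (reads scaled by transcript length and library depth, linear axes from 0) in the 3 wildtype and 3 knockout libraries. Digits give the replicate and lines the group means. Hk1, Pfkm, Pgam2 and Eno3 have all knockout libraries well above all wildtype libraries.

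The libraries were of similar depth, 15800000 to 17900000 reads as implied by the deposited values if these are RPKM, so depth gives them similar precision. Ucp1 was at 372 to 389 RPKM in the knockout libraries and at 1714 to 3151 RPKM in the wildtype libraries, lower in each knockout but not absent. Over all tested genes 804 rose and 83 fell, 887 in all, against 474 without knockout replicate 1 and 455 without knockout replicate 2. After scaling each library by its median ratio, 494 rose and 152 fell, and the median change of all genes moved from 0.08 to -0.01. The 4 isozymes that rose also rose after this scaling. The brown adipocyte markers summed to 5323 to 5477 RPKM in the knockout and 6420 to 8276 RPKM in wildtype. Without Ucp1, the deleted gene, the other 11 markers summed to 4947 to 5088 RPKM and 4706 to 5179.7 RPKM, so the groups overlapped. Cox8b was the largest part of this sum, with means of 1902 RPKM in the knockout and 1919 RPKM in wildtype. The sum therefore does not speak for each marker.

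Pgam2, the muscle form of the mutase that moves the phosphate of 3-phosphoglycerate, was at 35.4, 34.5 and 32.0 RPKM in knockout replicates 1 to 3. In wildtype replicates 1 to 3 it was at 5.61, 5.57 and 1.09 RPKM. The knockout libraries lay close together, and wildtype replicate 3 was well below the other wildtype libraries. The group means were 34.0 ± 1.80 and 4.09 ± 2.60 RPKM (SD, n = 3 each), which differed by 2.96 on the log2 scale (SE 0.39, limma adjusted p = 0.00254). The deposited value of wildtype replicate 3 stands for about 14.7 reads, against 75.4 and 76.3 in the other wildtype libraries and 459 to 480.4 in the knockout libraries.

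Eno3, the muscle enolase, was at 54.7, 56.6 and 49.5 RPKM in knockout replicates 1 to 3 and at 8.91, 10.7 and 4.75 RPKM in wildtype replicates 1 to 3. The lowest knockout library was far above the highest wildtype library, and wildtype replicate 3 was again the lowest. The means were 53.6 ± 3.67 and 8.11 ± 3.05 RPKM (SD, n = 3 each), which differed by 2.64 on the log2 scale (SE 0.23, limma adjusted p = 0.000487).

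The start regions of these isozymes are shown because Pgam2 and Eno3 had the largest changes of the 10 and moved together. The bases directly upstream of the annotated start, 250 for each gene, were taken from RefSeq on mouse assembly GRCm38.p6. Pgam2 lies on the minus strand, with this stretch at chr11:5803797-5804046, and Eno3 on the plus strand, with its stretch at chr11:70656926-70657175. Capitals mark E-boxes, the letters CANNTG that muscle-determining basic helix-loop-helix factors can bind, and in Pgam2 also a match to the MEF2 motif. Both strands were searched, and no marked match overlaps another.
Pgam2: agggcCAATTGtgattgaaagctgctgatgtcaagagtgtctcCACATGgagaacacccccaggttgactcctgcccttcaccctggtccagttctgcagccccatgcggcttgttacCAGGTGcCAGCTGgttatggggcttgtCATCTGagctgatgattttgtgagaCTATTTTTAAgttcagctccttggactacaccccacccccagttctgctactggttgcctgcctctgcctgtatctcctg
Eno3: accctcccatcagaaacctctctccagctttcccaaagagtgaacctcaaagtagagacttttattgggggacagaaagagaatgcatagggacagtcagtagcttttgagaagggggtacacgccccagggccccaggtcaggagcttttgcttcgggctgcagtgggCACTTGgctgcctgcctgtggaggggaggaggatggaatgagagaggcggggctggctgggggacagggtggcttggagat
Pgam2 held 5 E-boxes and 1 MEF2 match, CTATTTTTAA, which ends 70 bases before the start. Eno3 held 1 E-box, which ends 75 bases before the start, and no MEF2 match. Among 32851 windows of the same length upstream of mouse genes, 66.2% held an E-box and 2.92% held a MEF2 match. All 10 isozymes had at least 1 such window, 18 in all, of which 12 held an E-box and 1, that of Pgam2, a MEF2 match. The single windows of Hk2, Pfkp and Pgam1 held neither motif. E-boxes also lay upstream of other isozymes that were not called, in the single window of Pfkl, 3 of 3 of Aldoa and 1 of 3 of Eno1. Of the called isozymes, Pfkm held an E-box in 3 of 4 windows and Hk1 in 2 of 2, and neither held a MEF2 match. Some windows of the same gene overlap, among those of Pfkm, Aldoa and Eno1, and windows 2 and 3 of Aldoa hold the same E-box. The 18 windows are therefore not independent. The 12 of 18 windows are near the 66.2% of all windows, so this count is no result about the isozymes. These matches describe letters and were not tested as binding sites.

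Pfkm, the muscle form of the enzyme that commits sugar to glycolysis, was at 47.8, 42.3 and 39.3 RPKM in the knockout libraries. It was at 25.8, 27.6 and 25.1 RPKM in the wildtype libraries. The groups did not overlap, and wildtype replicate 3, which was lowest in Pgam2 and Eno3, was close to the other wildtype libraries here. The means were 43.2 ± 4.33 and 26.2 ± 1.28 RPKM (SD, n = 3 each), which differed by 0.70 on the log2 scale (SE 0.09, limma adjusted p = 0.00213).

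Hk1, the broadly expressed hexokinase that phosphorylates glucose on entry and binds to mitochondria, was at 21.8, 21.7 and 20.8 RPKM in the knockout libraries. It was at 7.67, 5.35 and 10.9 RPKM in the wildtype libraries, where replicate 3 was the highest and replicate 2 the lowest. The means were 21.4 ± 0.571 and 7.98 ± 2.79 RPKM (SD, n = 3 each), which differed by 1.37 on the log2 scale (SE 0.19, limma adjusted p = 0.00359). The difference was 1.59 on the log2 scale without wildtype replicate 3 and 1.14 without wildtype replicate 2. Hk1 overlaps an annotated antisense gene, Hk1os, and the use of strand in counting was not stated in the sources used here.

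**Figure D2:**
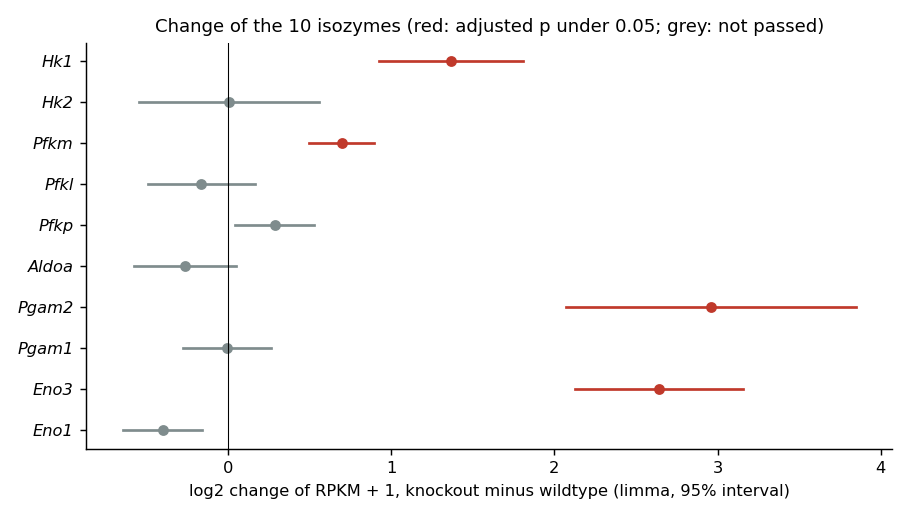
Change of each isozyme as the difference in log2(RPKM + 1), knockout minus wildtype, with its 95% interval from limma, 3 libraries per group. Red points passed an adjusted p of 0.05: Pgam2 (2.96), Eno3 (2.64), Hk1 (1.37) and Pfkm (0.70). Grey points did not pass.

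Hk2, the insulin-regulated hexokinase of muscle and fat, was at 121, 123 and 68.0 RPKM in the knockout libraries and at 111, 117 and 76.3 RPKM in the wildtype libraries. Replicate 3 was low in both genotypes and the groups overlapped. The log2 change was 0.01 (95% interval -0.54 to 0.56, limma adjusted p = 0.990), so the interval holds a change of up to about 0.5 in either direction.

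Pfkl, the liver-type phosphofructokinase, was at 111, 130.3 and 105 RPKM in the knockout libraries and at 105, 131 and 155 RPKM in the wildtype libraries. The groups overlapped, and the log2 change was -0.16 (95% interval -0.49 to 0.16, limma adjusted p = 0.540). Pfkp, the platelet-type form, was at 22.1, 24.9 and 23.2 RPKM in the knockout libraries and at 16.5, 18.9 and 22.0 RPKM in the wildtype libraries. The groups just failed to overlap, and the log2 change of 0.29 (95% interval 0.04 to 0.53) missed the threshold (limma adjusted p = 0.147). Pfkp therefore went the same way as Pfkm in these libraries, by a smaller amount that did not pass.

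Aldoa, which splits fructose 1,6-bisphosphate and serves muscle as well as many other tissues, was by far the most abundant of the 10. It was at 1123, 1446 and 1212 RPKM in the knockout libraries and at 1457, 1769 and 1319 RPKM in the wildtype libraries. The groups overlapped, and the log2 change was -0.26 (95% interval -0.57 to 0.05, limma adjusted p = 0.288). Aldoa has the near-identical retrogene copies Aldoart1, listed at 7.27 to 12.8 RPKM, and Aldoart2, listed at 19.5 to 31.4 RPKM, so its reads may have been split among them.

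Eno1, the broadly expressed enolase, was at 109.6, 131 and 116 RPKM in the knockout libraries and at 145, 179 and 148 RPKM in the wildtype libraries. Every knockout library was below every wildtype library, and the means were 119 ± 10.96 and 157 ± 19.3 RPKM (SD, n = 3 each). The log2 change of -0.40 (SE 0.11) missed the threshold (limma adjusted p = 0.0594). After median-ratio scaling it was -0.50 and passed (limma adjusted p = 0.0362). Eno1 has a near-identical copy, Eno1b, listed at 0 to 0.072 RPKM.

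Pgam1, the broadly expressed mutase, was at 1.64, 2.21 and 1.66 RPKM in the knockout libraries and at 2.07, 1.51 and 1.95 RPKM in the wildtype libraries. The groups overlapped, with means of 1.84 ± 0.326 and 1.84 ± 0.293 RPKM (SD, n = 3 each). The log2 change was 0.00 (95% interval -0.27 to 0.27, limma adjusted p = 0.990). Its values stand for 43.2 to 62.1 reads per library, and processed copies of Pgam1 elsewhere in the genome make its level uncertain.

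Within the phosphofructokinases, Pfkm made up 26.5%, 21.4% and 23.4% of the summed RPKM in the knockout libraries and 17.5%, 15.6% and 12.4% in the wildtype libraries. Pfkl remained the main form, at 63.4 ± 2.36% in the knockout and 74.0 ± 2.70% in the wildtype libraries (SD, n = 3 each), while the summed level was 182 ± 14.8 and 176 ± 27.5 RPKM. Eno3 made up 33.3%, 30.2% and 30.0% of the summed enolases in the knockout libraries and 5.80%, 5.62% and 3.11% in the wildtype libraries. The summed enolase level was 172 ± 13.2 RPKM in the knockout and 165 ± 21.5 RPKM in the wildtype libraries, so the make-up differed more than the sum.

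The mutases differed in another way, because the summed level of the listed forms moved with Pgam2. It was 37.1, 36.8 and 33.6 RPKM in the knockout libraries and 7.68, 7.09 and 3.03 RPKM in the wildtype libraries. Pgam2 made up 95.6%, 94.0% and 95.05% of it in the knockout libraries and 73.0%, 78.7% and 35.8% in the wildtype libraries. These mutase shares inherit the uncertainty of Pgam1. Hk1 made up 15.3%, 15.02% and 23.4% of the summed Hk1 and Hk2 in the knockout libraries and 6.45%, 4.37% and 12.5% in the wildtype libraries, with Hk2 the main form throughout.

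**Figure D3:**
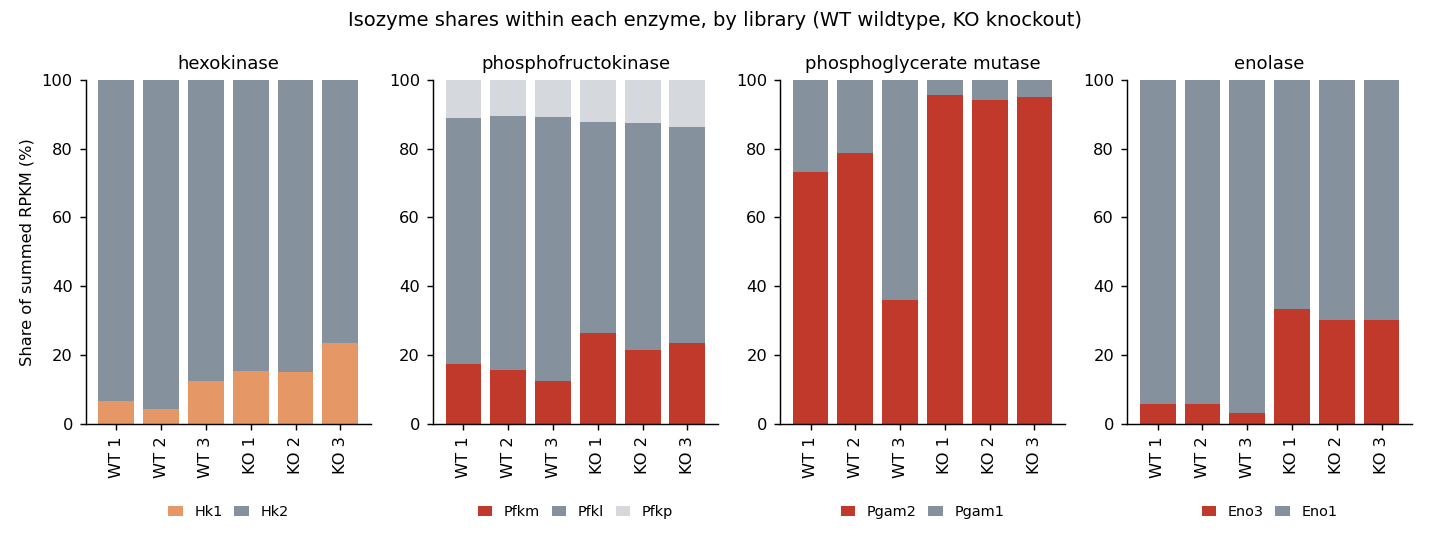
Share of each isozyme in the summed RPKM of its enzyme (percent, axes from 0 to 100) in each of 6 libraries, WT wildtype and KO knockout, 1 stacked bar per library. Red marks the muscle form. Eno3 takes 30.0% to 33.3% of enolase in the knockout libraries and 3.11% to 5.80% in the wildtype libraries.

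Log2 ratios within a library were taken after 1 RPKM was added to both levels. In these ratios the knockout libraries exceeded the wildtype libraries by 3.04 (SE 0.27) for Eno3 to Eno1 and by 2.96 (SE 0.59) for Pgam2 to Pgam1. The difference was 1.36 (SE 0.51) for Hk1 to Hk2, 0.86 (SE 0.21) for Pfkm to Pfkl and 0.41 (SE 0.17) for Pfkm to Pfkp. Because Pgam1 was low, the added 1 RPKM matters most for Pgam2 to Pgam1, where adding 0.1 RPKM instead gave 3.34. The groups did not overlap in any of the 5 ratios. The 2-sided exact permutation test gave p = 0.1 for each, also 0.1 after adjustment over the 5 ratios, and this is the smallest p that 3 against 3 libraries allow. The design therefore cannot pass a threshold of 0.05 for these ratios.

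Ordered by mean level, the wildtype libraries ran from Aldoa through Eno1, Pfkl, Hk2, Pfkm, Pfkp, Eno3, Hk1 and Pgam2 to Pgam1. In the knockout libraries the order was Aldoa, Eno1, Pfkl, Hk2, Eno3, Pfkm, Pgam2, Pfkp, Hk1 and Pgam1. Eno3 moved from below Pfkm and Pfkp to above both. Neighbours such as Eno1, Pfkl and Hk2 in the knockout libraries, or Eno3 and Hk1 in the wildtype libraries, differed by less than their spread.

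The deposited table lists several transcript rows per gene, which share reads and are not independent. All 9 rows of Eno3 with a mean of at least 1 RPKM were higher in the knockout libraries, by 5.06 to 7.22-fold, as were both such rows of Pgam2, by 8.31 and 8.41-fold. The same held for 4 rows of Pfkm, each at 1.65-fold, for 22 rows of Hk1, at 2.31 to 3.06-fold, and for 18 rows of Pfkp, at 1.09 to 1.32-fold. All 12 rows of Aldoa and all 9 such rows of Eno1 were lower in the knockout libraries, at 0.826 to 0.849 and 0.751 to 0.841 of the wildtype mean. Hk2, Pfkl and Pgam1 had rows in both directions.

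The 20 markers of skeletal muscle fibres were measured beside the isozymes, since a dissected depot can carry muscle. All 20 passed the test and rose, and they summed to 2066, 2051 and 1827 RPKM in the knockout libraries and to 263, 301 and 60.3 RPKM in the wildtype libraries. None was at 0. Acta1, the actin of the fibre, was at 425, 424 and 342 RPKM in the knockout libraries and at 46.5, 57.0 and 8.54 RPKM in the wildtype libraries. Of 8 slow or cardiac muscle markers, 6 were tested and all 6 rose, with summed levels of 31.6 to 92.0 RPKM in the knockout and 1.46 to 7.56 RPKM in the wildtype libraries. Wildtype replicate 3 had the least muscle RNA and also the least Pgam2, Eno3 and, by a small margin, Pfkm. Without it, the log2 changes were 2.41 for Pgam2, 2.34 for Eno3 and 0.67 for Pfkm, and all 3 passed the test. The part of this muscle RNA in the isozyme differences was not tested, and in bulk samples fewer cells of a type and less RNA per cell cannot be told apart.

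Per 100 RPKM of the summed fibre markers, Pgam2 was at 1.71, 1.68 and 1.75 RPKM in the knockout libraries and at 2.13, 1.85 and 1.80 RPKM in the wildtype libraries. Relative to these markers it was thus slightly lower in every knockout library, whereas its level was higher in every one. The gap was narrow, 1.75 RPKM in knockout replicate 3 against 1.80 RPKM in wildtype replicate 3. The latter rests on about 14.7 reads of Pgam2, so this direction is uncertain. Eno3 was at 2.65, 2.76 and 2.71 RPKM in the knockout and at 3.38, 3.55 and 7.88 RPKM in the wildtype libraries on this scale. Pfkm was at 2.32, 2.06 and 2.15 RPKM in the knockout libraries, against 9.79, 9.18 and 41.7 RPKM in the wildtype libraries. Hk1 was at 1.06, 1.06 and 1.14 RPKM in the knockout libraries, against 2.91, 1.78 and 18.1 RPKM in the wildtype libraries. In wildtype replicate 3, where the fibre markers were lowest, Pfkm was at 25.1, Hk1 at 10.9, Eno3 at 4.75 and Pgam2 at 1.09 RPKM. These values are from 1 library, and the part of muscle RNA in them was not tested.

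**Figure D4:**
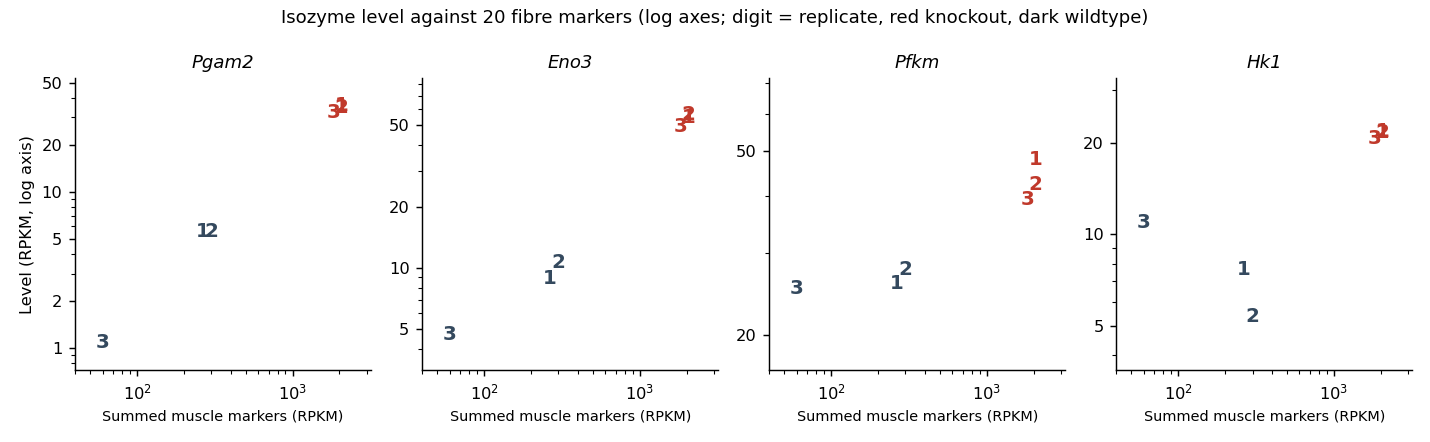
Level of Pgam2, Eno3, Pfkm and Hk1 (RPKM, log axes) against the summed RPKM of 20 skeletal muscle fibre markers (log axis) in 6 libraries. Digits give the replicate, red the knockout and dark the wildtype libraries. Wildtype replicate 3, with 60.3 RPKM of markers, is lowest in Pgam2, Eno3 and, by a small margin, Pfkm, and is the highest wildtype library in Hk1.

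Markers of other cell types were counted in the same way. The macrophage markers summed to 52.7 to 69.6 RPKM in the knockout and 31.9 to 48.3 RPKM in the wildtype libraries, with 1 of 8 passing the test, Mpeg1, which rose. Summed erythroid, smooth muscle, endothelial and nerve markers overlapped between the groups, and none of their 18 tested members passed. Of the 12 brown adipocyte markers, Elovl3 rose, Ucp1 and Prdm16 fell and 9 did not pass. The part of these cell types in the change of Hk1 or of any other isozyme was not tested.

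The genes nearest in profile to each called isozyme were found by the root mean square difference of centred log2(RPKM + 1) over the 6 libraries. For Pgam2 they were Tpm2, a tropomyosin, at 0.088, Pygm, the muscle glycogen phosphorylase, at 0.12, and Casq1, the calcium-storing calsequestrin of fast fibres, at 0.14. For Eno3 they were Eef1a2 at 0.067, Tpm1 at 0.071 and Hfe2 at 0.076. For Pfkm they were Slco4a1 at 0.040, Taf1d at 0.054 and Slc47a1 at 0.055. For Hk1 they were Got1, the cytosolic aspartate aminotransferase, at 0.075, Ccl8, a chemokine, at 0.17 and Fam129a at 0.22. The added 1 RPKM shrinks the changes of low genes, so a low gene can lie near an isozyme with a smaller fold change. Hfe2 was at 8.70 to 9.19 RPKM in the knockout and 0.183 to 1.19 RPKM in the wildtype libraries. In the same order, Slc47a1 was at 1.28 to 1.87 and 0.514 to 0.581 RPKM. Ccl8 was at 1.71 to 2.23 and 0.121 to 0.602 RPKM. The measure rests on 6 libraries in 2 groups and is given as a description.

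The other enzymes and regulators of glycolysis were taken from a list of 25 genes, all present in the table. Of these, 13 were abundant enough to test, 0 rose and 0 fell by limma, and the lowest adjusted p was 0.0586. At an unadjusted p under 0.05, 3 of the 13 differed, with Gpi1 and Ldha lower and Tpi1 higher, a share near the 23.5% of all tested genes, so this count is no result about these enzymes. The median log2 change of the 13 was -0.07, beside 0.08 for all tested genes.

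Ldha, the lactate dehydrogenase subunit that predominates in muscle, was at 375, 394 and 374 RPKM in the knockout libraries and at 441, 474 and 470.4 RPKM in the wildtype libraries. The groups did not overlap, with a log2 change of -0.28 (limma adjusted p = 0.0586) that became -0.38 after median-ratio scaling and passed (limma adjusted p = 0.0221). Gpi1, which converts glucose 6-phosphate to fructose 6-phosphate, was at 97.8, 119 and 105 RPKM in the knockout libraries and at 127, 152 and 127 RPKM in the wildtype libraries. Its log2 change was -0.33 (limma adjusted p = 0.0977). Tpi1, which interconverts the triose phosphates, was at 151, 154 and 137 RPKM in the knockout libraries and at 121, 122 and 124 RPKM in the wildtype libraries. Its log2 change was 0.26 (limma adjusted p = 0.0681).

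Pkm, the pyruvate kinase of muscle and most other tissues, was at 257, 286 and 245 RPKM in the knockout libraries and at 266, 310.0 and 286 RPKM in the wildtype libraries (log2 change -0.13, limma adjusted p = 0.443). Pfkfb3, which makes the activator of phosphofructokinase, was at 235 ± 30.1 RPKM in the knockout and 246 ± 14.8 RPKM in the wildtype libraries (SD, n = 3 each). Pgk1 was at 10.8 to 13.7 and 11.7 to 14.4 RPKM, and Bpgm, the bisphosphoglycerate mutase, at 10.9 to 12.3 and 11.7 to 13.03 RPKM, in knockout and wildtype libraries. Aldoc, Eno2 and Gapdhs stayed under 1 RPKM in every library and were not tested. Gapdh is listed at 0 in every library in the row used, a value that near-identical copies make uncertain.

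**Figure D5:**
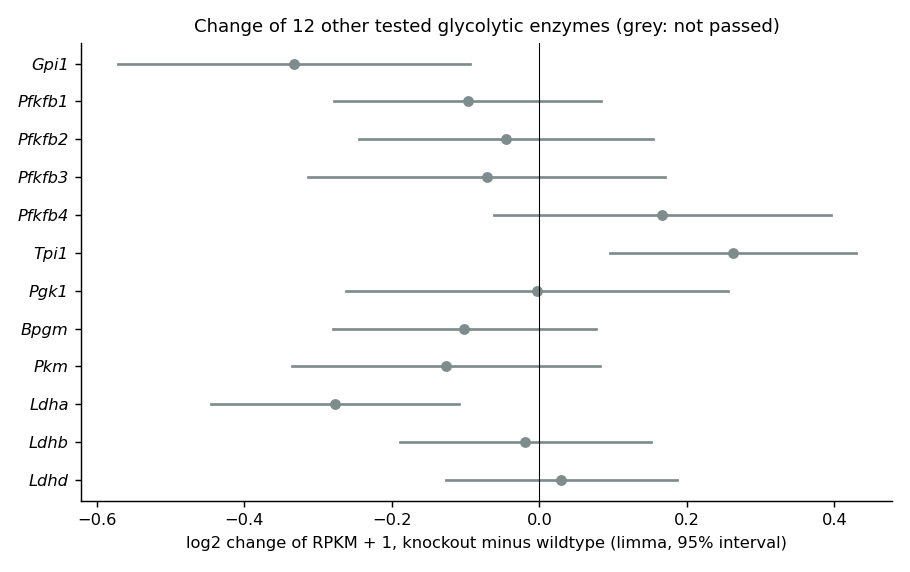
Change of 12 of the 13 tested glycolytic enzymes and regulators other than the 10 isozymes, as the difference in log2(RPKM + 1), knockout minus wildtype, with the 95% interval from limma, 3 libraries per group. None passed an adjusted p of 0.05, and Ldha came closest at 0.0586.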

How the data were processed

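Per the labels' protocols, libraries were made from total RNA with a TruSeq kit. CASAVA and bcl2fastq were used, per the submitters' processing notes. The sources used here do not give the aligner, genome build or annotation. The authors deposited values for 168326 transcript rows, written with decimal commas. No header or label names their unit, and they were taken as RPKM. Whether the values follow whole reads over length was checked on low values among 46002 Ensembl rows with known length. Products of value and length under 10 reads were used, 7860 to 8343 per library. At the depth that gave the highest share in each library, 96.2% to 96.4% of these were whole reads within 0.1. Any unit proportional to reads over length would pass, so this does not single out RPKM. Rows without a gene identifier (23170, 13.8%) were left out. For each gene 1 row was kept, a RefSeq row if present, then that with the highest mean. A gene was tested if its mean reached 1 RPKM in the knockout or the wildtype group, as log2(RPKM + 1) with limma 3.58.1 (R 4.3.3, intensity trend, genotype as the only factor), 2-sided, with Benjamini-Hochberg adjustment over 11562 genes and a threshold of 0.05. The log2(RPKM + 1) scale understates changes of low genes. Fold values are ratios of mean RPKM. Ratios of isozymes, with 1 RPKM added to both levels, were compared by exact permutation over libraries (SciPy 1.17.1). The code of the fit was tried on simulated counts drawn independently for each gene. That setting is simpler than these data, where muscle genes varied together, so it does not measure error rates here.

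The members and gene lists were chosen with earlier results of these data known. Named are all 10 isozymes, called genes and the most abundant gene per step of the other enzymes, up to 3 abundant markers per cell type, and the 3 nearest genes of each called isozyme. A gene that this rule takes from the other enzymes is not reported here. Gpi1, Ldha and Tpi1 are also named for their unadjusted p. Marker genes that passed are named after their values were seen. Alternatives changed scaling, filter, pseudocount, rows per gene, replicates and the replicate block. Libraries did not duplicate each other: wildtype replicates 2 and 3 shared exact values at 2 genes, and the remaining pairs at 0.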

Additional observations from a re-analysis of the deposited data

How the results depend on the processing

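Pfkm, Eno3, Pgam2 and Hk1 were called higher in all 14 alternatives, with log2 changes of 0.60 to 0.76, 2.34 to 2.85, 2.41 to 3.33 and 1.14 to 1.59. All 45 alternative values of the isozyme ratios kept their sign. For those with 1 library left out this was fixed in advance, because the groups did not overlap in any ratio. Eno1 fell past the threshold after median-ratio scaling and with the replicate block, and Pfkp, Pfkl and Aldoa kept their sign without passing. Hk2 changed sign after median-ratio scaling (-0.090), with summed rows (-0.033) and with the row of highest mean (-0.039), and ranged from -0.18 to 0.28 when 1 library was left out. Pgam1 became 0.039 with summed rows and ranged from -0.096 to 0.054 without 1 library. Pgam1 could not be tested at a minimum mean of 5 RPKM. Of all genes, 887 were called, against 454 at that minimum and 455 to 849 with 1 library left out, with 474 without knockout replicate 1 and 455 without knockout replicate 2. Of the other glycolytic enzymes, whose alternatives were added after the data were seen, 1 was called after median-ratio scaling (Ldha, lower) and 1 with summed rows (Hk3, higher, 0.82 on the log2 scale). Same-numbered libraries correlated at 0.092, 0.038 and -0.018 in their deviations from group means, and not every library was nearest to its own number. With 3 libraries per group, these values cannot decide whether the numbers pair the libraries. The replicate block called 775 genes and 5 isozymes, Eno1 added at a limma adjusted p of 0.0339. The causes of these differences were not tested. Depth limits Pgam1 and, in wildtype replicate 3, Pgam2.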
